A study of Homo sapiens with 25 samples.

Results

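The 12 RNA libraries of the series, out of 25 samples in all, were used to ask which genes respond differently to the CHK1 inhibitor prexasertib once TRRAP has been degraded. The other 13 samples are CUT&RUN chromatin profiles and are not analysed here. For each gene the quantity tested was the difference of 2 responses on the log2 scale, prexasertib with 5-Ph-IAA against 5-Ph-IAA alone, minus prexasertib alone against DMSO. A value above 0 means a response shifted upward in cells that received 5-Ph-IAA, and a value below 0 one shifted downward.

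All libraries came from A549, a lung carcinoma line, whose TRRAP carries the mAID degron tag in every group. A degron is a peptide that sends its host protein for destruction when a small molecule, here the auxin analogue 5-Ph-IAA, is added. Every culture was held for 20 h in 2 mM thymidine, which arrests cells in S phase, and then released for 4 h. The groups were DMSO, prexasertib for 3 h (labelled CHK1i), 5-Ph-IAA at 1 µM for 6 h (labelled IAA) and both drugs (labelled IAA_CHK1i), with 3 libraries each, numbered 1 to 3. The prexasertib dose is not given here because the labels state it in different units for the 2 assays. The RNA labels give the genotype as WT although the cells carry the tag, and neither 5-Ph-IAA in cells without the tag nor the amount of TRRAP protein is analysed here. The labels do not say that the 3 libraries of a group came from separate cultures, so p-values measure only the spread between these libraries. In the main fit this is the spread left after differences between the replicate numbers are taken out.

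TRRAP is a large scaffold protein shared by SAGA and TIP60, complexes that acetylate histones and that transcription factors such as MYC recruit to promoters. CHK1 is the kinase through which ATR restrains CDK activity during S phase, and inhibiting it lets mitotic genes rise early. Many of those genes are bound by the MMB complex, in which the MuvB core (LIN9, LIN54 and partners) joins B-MYB (the product of MYBL2) and later FOXM1, often at a promoter element called the CHR next to CCAAT boxes. CHK1 inhibition in S phase also causes replication stress, to which p53 target genes and the stress-inducible immediate-early genes can respond.

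Total counts ran from 10830048 to 17789482 per library, and 14658 genes passed the filter on low counts. The libraries numbered 3 stood apart: their deviations from the group means correlated with each other at 0.531 to 0.633 across genes, and with those of numbers 1 and 2 at -0.503 to -0.326. The replicate number was a block because the rule set for this report named it, not because of these correlations. Each response was thus compared within its own number, and values for numbers 1, 2 and 3 are given in that order throughout. Of 16 markers of other cell types, 6 passed the filter. Their summed levels ran from 82.1 to 114 CPM (counts scaled to library size) over the 12 libraries. The 6 that passed were SNAP25 (group means up to 52.1 CPM), COL1A1 (up to 34.7 CPM), SYT1, RBFOX3, CD14 and COL3A1. PTPRC, CD3E, PECAM1 and HBB were among those that did not pass. Summed levels of the 9 epithelial markers were lower with 5-Ph-IAA, at 7470 to 8710 CPM against 8720 to 10200 CPM without it.

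The prexasertib response depended on 5-Ph-IAA for 96 genes, 0.655% of those tested, at an adjusted p under 0.05 in edgeR's quasi-likelihood test. The difference of responses lay above 0 for 55 genes (0.375%) and below 0 for 41 (0.28%). In the same fit prexasertib changed 2659 genes without 5-Ph-IAA (18.1%) and 2272 genes with it (15.5%). With library size alone as scaling, the share of higher calls fell from 46.1% to 34.3% without 5-Ph-IAA and from 50.4% to 28.4% with it.

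The 55 genes above 0 had a median difference of 0.45 (log2), and the response without 5-Ph-IAA was below 0 in 39 of them while that with it was above 0 in 53. By class, 13 rose in both arms and rose more with 5-Ph-IAA, 16 had a rise called only with it, 15 had a fall called only without it, and 9 were called in opposite directions. The last 2 fell in both arms and fell less with 5-Ph-IAA. Of the 41 genes below 0, with a median of -0.47, 15 rose in both arms and rose less with 5-Ph-IAA, and 21 had a rise called only without it. The other 5, DLC1, MYC and HMGCS1 among them, had a fall called only with it. The difference kept its sign in all 3 numbers for 54 of 55 and 40 of 41 genes, an agreement that calling genes from these same values favours. The exceptions were H1-10 and PRDM2, whose number 3 values were near 0. Number 3 gave the smaller shifts, with medians of 0.48, 0.52 and 0.31 over the genes above 0 and of -0.50, -0.53 and -0.36 over those below.

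The block decides these calls: without it no gene was called by edgeR (0.0%) or limma-voom, with 519 and 528 genes at an unadjusted p under 0.05, and DESeq2 called 5 genes above 0 and none below. All 96 genes kept the sign of their difference without the block, which the design makes nearly certain. Every group holds each number, so leaving out the block changes the error but hardly the estimate (CDK1 0.6513 with it and 0.6504 without). With a block that only set number 3 apart from numbers 1 and 2, chosen after seeing the data, 50 genes were called above 0 and 40 below, 89 of them among the 96. Counts of calls also moved with single libraries. The count above 0 was 30, 34 and 103 without DMSO libraries 1, 2 and 3 in turn, 18, 21 and 60 without those of prexasertib, 19, 20 and 101 without those of 5-Ph-IAA, and 40, 40 and 45 without those of both drugs. The count below 0 was 22, 16 and 57, 10, 10 and 57, 11, 11 and 49, and 27, 26 and 52 in the same order. Removing a library numbered 3 left the most calls in each group.

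**Figure D1:**
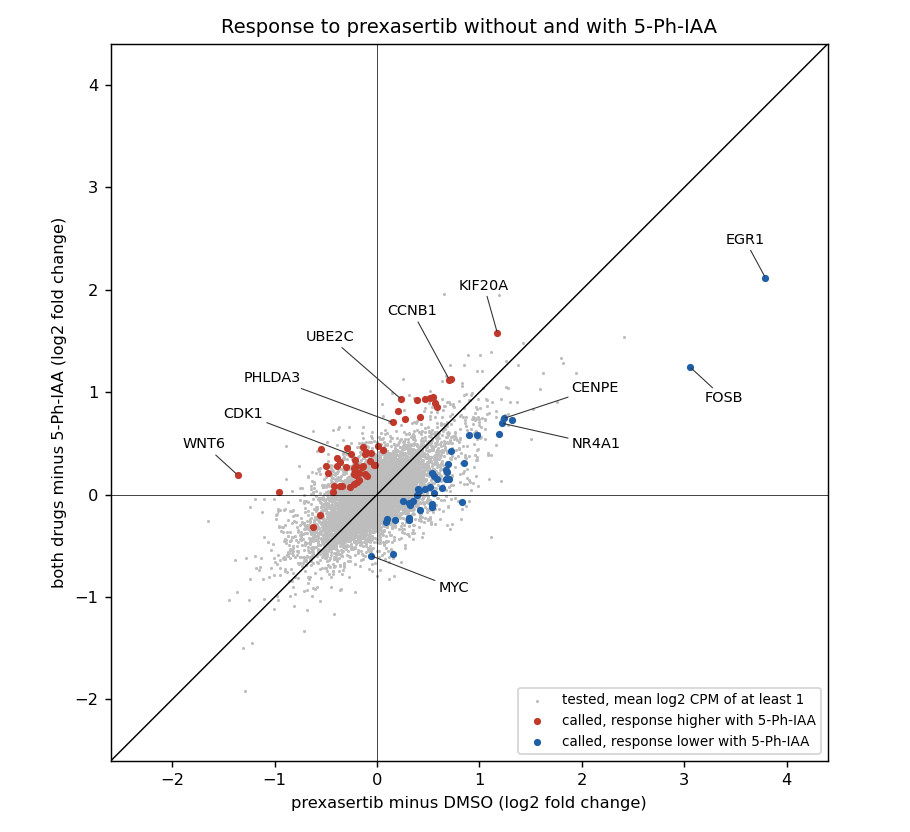
Each point is a gene whose log2 CPM averages 1 or more, placed by its log2 response to prexasertib without 5-Ph-IAA (x axis) and with it (y axis). Red points are called above 0 and blue points below 0; EGR1 and FOSB lie furthest to the right, at 3.79 and 3.05 without 5-Ph-IAA against 2.12 and 1.25 with it, and 1 called gene of lower level is not drawn.

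The promoters of 5 genes that carry the main results are shown with their CHR, CCAAT box or CArG box, the CHR being TTTGAA, since the first 4 are MMB targets called in either direction and EGR1 has the smallest adjusted p of the early genes called below 0. They are the 250 bases before the start on the gene's own strand, from RefSeq on GRCh38.p14, and capitals mark a match, which on the opposite strand reads ATTGG for the CCAAT box and TTCAAA for the CHR. CDK1 lies at chr10:60778081-60778330 (plus strand), CCNB1 at chr5:69166900-69167149 (plus strand), KIF20A at chr5:138178862-138179111 (plus strand), CKAP5 at chr11:46846281-46846530 (minus strand) and EGR1 at chr5:138465229-138465478 (plus strand).
CDK1: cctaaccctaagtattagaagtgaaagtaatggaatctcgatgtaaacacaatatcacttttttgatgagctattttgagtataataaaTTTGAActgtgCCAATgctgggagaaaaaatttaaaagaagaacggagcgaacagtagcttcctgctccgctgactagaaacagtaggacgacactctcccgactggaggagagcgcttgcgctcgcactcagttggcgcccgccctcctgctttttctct
CCNB1: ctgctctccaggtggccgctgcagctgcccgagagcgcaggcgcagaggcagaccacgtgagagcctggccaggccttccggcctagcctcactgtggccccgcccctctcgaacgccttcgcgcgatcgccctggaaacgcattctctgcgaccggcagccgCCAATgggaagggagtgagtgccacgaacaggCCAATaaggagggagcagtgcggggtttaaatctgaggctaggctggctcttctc
KIF20A: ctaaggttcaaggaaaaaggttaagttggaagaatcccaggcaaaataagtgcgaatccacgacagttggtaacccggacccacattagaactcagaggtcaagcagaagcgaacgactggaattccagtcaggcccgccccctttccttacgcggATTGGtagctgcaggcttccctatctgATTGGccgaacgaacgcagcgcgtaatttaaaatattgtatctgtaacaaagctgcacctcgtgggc
CKAP5: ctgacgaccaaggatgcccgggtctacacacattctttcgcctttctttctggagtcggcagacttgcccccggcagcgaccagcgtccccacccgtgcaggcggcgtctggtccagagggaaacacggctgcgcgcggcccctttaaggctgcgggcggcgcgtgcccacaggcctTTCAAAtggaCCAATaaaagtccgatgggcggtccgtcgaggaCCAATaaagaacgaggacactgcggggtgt
EGR1: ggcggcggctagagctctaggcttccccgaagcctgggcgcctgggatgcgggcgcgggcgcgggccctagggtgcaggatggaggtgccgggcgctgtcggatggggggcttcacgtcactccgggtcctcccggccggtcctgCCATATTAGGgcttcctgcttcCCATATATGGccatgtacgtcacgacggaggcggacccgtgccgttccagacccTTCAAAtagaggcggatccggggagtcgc

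CDK1, whose difference was above 0, holds a TTTGAA 161 bases before its start and a CCAAT 150 bases before it, and CKAP5, whose difference was below 0, holds a TTTGAA at 73 bases with CCAAT at 63 and 30 bases. CCNB1 shows CCAAT at 87 and 55 bases and KIF20A at 94 and 67 bases, and EGR1 shows CArG boxes, the site of serum response factor, at 105 and 83 bases and a TTTGAA at 29 bases. Over windows from 250 bases before to 50 after the start, on both strands, TTTGAA occurred in 21.4% of 42 promoters above 0, 33.3% of 33 below 0 and 9.53% of all 11547 tested genes with a promoter. CCAAT occurred in 50.0%, 42.4% and 36.3%. TTTGAA and CCAAT were thus found on both sides of 0, but MMB targets made up a larger part of the matches above 0 than below. For the CHR they were 6 of the 9 promoters with a match above 0 and 2 of the 11 below 0. For the CCAAT box they were 8 of 21 above 0 and 2 of 14 below 0. Of 69 MMB targets with a promoter, 68.1% held the CHR and 75.4% the CCAAT box. Enrichment outside the MMB list was not tested. CACGTG gave 11.9%, 18.2% and 9.9%, TGACGTCA 4.76%, 9.09% and 3.24%, and TATAAA 9.52%, 15.2% and 5.66%. The E2F motifs TTTCCCGC and TTTGGCGC gave 9.52%, 6.06% and 3.61%, and the AP-1 motifs TGAGTCA and TGACTCA 2.38%, 0.0% and 3.39%. A CArG box was found in 0.0% above 0, in 9.09% below 0 (EGR1, FAM53C and CBLL1) and in 1.02% of all. A match is only a run of letters and does not show that a factor binds.

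Calls among mitotic genes lay on both sides of 0. Of 82 MMB targets, all tested, 10 were called above 0 and 4 below 0, against 0.375% and 0.28% of all genes, and the median difference was -0.03 against 0.01 over all genes. Over the whole list the fold responses of the arms were close, with medians of 0.54 (log2) without and 0.54 with 5-Ph-IAA. The gains in CPM were not: their difference lay above 0 in only 5 of the 82, against 7594 of all 14658 genes. In bulk libraries a change in the share of cells nearing mitosis and a change per cell cannot be told apart. Those called above 0 were UBE2C, CDK1, CENPA, PLK1, CCNB1, HMMR, FAM83D, KIF20A, CKS2 and KPNA2, and those called below 0 were KNL1, BORA, CENPE and CKAP5. The count below 0 fell to 1 without DMSO library 2, prexasertib library 1 or 2, or 5-Ph-IAA library 2, and to 2 without the library with both drugs numbered 1.

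UBE2C, which encodes the ubiquitin-conjugating enzyme of the anaphase-promoting complex (chr20:45812644-45816952), had the smallest adjusted p of all genes. It stood at 206, 206 and 226 CPM with DMSO and at 258, 239 and 255 CPM with prexasertib. With 5-Ph-IAA it stood at 82.4, 82.6 and 88.8 CPM, and with both drugs at 150.1, 159.7 and 174 CPM. No group overlapped another, and the level with 5-Ph-IAA alone was the lowest. The response was 0.24 ± 0.05 (log2 ± SE) without 5-Ph-IAA and 0.93 ± 0.06 with it. The difference was 0.69 ± 0.077 (edgeR, adjusted p = 8.6e-08), from 0.54, 0.74 and 0.80 in the 3 numbers.

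CDK1, the kinase that drives entry into mitosis (chr10:60778331-60794852), responded in opposite directions. Its level was 270.2, 256 and 199 CPM with DMSO and 218, 222 and 166 CPM with prexasertib, lower within each number although the groups overlap. From 131, 137 and 125 CPM with 5-Ph-IAA it reached 167, 186 and 162 CPM with both drugs, above every 5-Ph-IAA library. CDK1 thus fell by 0.26 ± 0.06 without 5-Ph-IAA and rose by 0.39 ± 0.06 with it. The difference was 0.65 ± 0.087 (adjusted p = 2.4e-05) and almost the same in each number, at 0.65, 0.65 and 0.64.

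CCNB1 (chr5:69167150-69178245), the cyclin B1 partner of CDK1, stood at 511, 503 and 564 CPM with DMSO and 844, 846 and 876 CPM with prexasertib. It stood at 225, 226 and 273 CPM with 5-Ph-IAA and 492, 517 and 563 CPM with both drugs. The libraries with both drugs overlapped those with DMSO, and within each arm the prexasertib libraries were all higher. CCNB1 rose by 0.71 ± 0.05 without 5-Ph-IAA and by 1.12 ± 0.05 in the other arm, a difference of 0.42 ± 0.071 (adjusted p = 0.00072; 0.40, 0.44 and 0.41 by number).

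PLK1 (chr16:23678889-23690367), a kinase of the mitotic spindle, stood at 323, 323 and 364 CPM with DMSO, 456, 448 and 539.5 CPM with prexasertib, 134, 133 and 150.1 CPM with 5-Ph-IAA, and 266, 257 and 276 CPM with both drugs. No group overlapped another. The difference of responses was 0.43 ± 0.072 (adjusted p = 0.0007; 0.49, 0.48 and 0.31 by number). KIF20A (chr5:138179112-138187723), a kinesin of the central spindle, stood at 214, 211 and 221 CPM with DMSO, 477, 474 and 506 CPM with prexasertib, 67.5, 65.0 and 68.6 CPM with 5-Ph-IAA, and 201, 197 and 203 CPM with both drugs. The groups again did not overlap, and the difference was 0.40 ± 0.073 (adjusted p = 0.0016; 0.41, 0.43 and 0.36 by number). KIF20A overlaps CDC23 on the opposite strand.

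For these genes the scale matters, because their level with 5-Ph-IAA alone was below that with DMSO. The fold rise of KIF20A was larger with 5-Ph-IAA, but its gain in CPM was smaller by 137.5. The same opposite sign on the CPM scale was found for 7 of the 55 genes above 0, all of them MMB targets: KIF20A (-137.5 CPM), KPNA2 (-142.4 CPM), CCNB1 (-47.4 CPM), PLK1 (-17.0 CPM), FAM83D (-13.6 CPM), HMMR (-9.29 CPM) and CKS2 (-4.85 CPM). UBE2C (39.4 CPM), CDK1 (80.7 CPM) and CENPA (2.87 CPM) were above 0 on both scales, and all 41 genes below 0 kept their sign.

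The remaining MMB targets called above 0 rose in both arms. CENPA, the centromeric histone H3 variant, went from a mean of 81.4 ± 4.79 to one of 106.9 ± 13.7 CPM (SD, n = 3) in the arm without 5-Ph-IAA and from 31.5 ± 3.16 to 59.9 ± 5.99 CPM in the other. Its difference was 0.54 (adjusted p = 0.0016; 0.48, 0.70 and 0.42 by number). HMMR, a spindle-associated hyaluronan receptor, gave 0.41, and FAM83D, which brings a kinase to the spindle, also gave 0.41. CKS2, a CDK-binding subunit, gave 0.34, and the nuclear import receptor KPNA2 gave 0.27.

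CENPE, KNL1, BORA and CKAP5 went the other way. CENPE (chr4:103105811-103198343), a kinesin that moves chromosomes to the spindle equator, stood at 109.5, 87.7 and 51.7 CPM with DMSO and 239, 238 and 114 CPM with prexasertib. It stood at 55.2, 59.4 and 34.7 CPM with 5-Ph-IAA and 93.2, 101 and 56.2 CPM with both drugs. Number 3 was low in every group, so the groups overlap, but prexasertib was higher within each number of each arm. The rise of CENPE was 1.23 ± 0.07 in the first arm and 0.74 ± 0.08 in the second, a difference of -0.49 ± 0.1 (adjusted p = 0.017; -0.37, -0.67 and -0.45 by number). Its call was lost in 5 of the 12 removals of 1 library, namely DMSO 2, prexasertib 1 and 2, 5-Ph-IAA 2 and both drugs 1, with adjusted p up to 0.11.

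KNL1 (chr15:40594249-40664342), a scaffold of the kinetochore, stood at 47.7, 40.6 and 41.9 CPM with DMSO and 62.8, 69.8 and 56.6 CPM with prexasertib. It stood at 38.6, 38.9 and 36.0 CPM with 5-Ph-IAA and 34.9, 34.2 and 37.5 CPM with both drugs. Without 5-Ph-IAA the prexasertib libraries were all higher, and with it the groups overlapped. The response was 0.54 ± 0.08 without 5-Ph-IAA and -0.09 ± 0.08 (adjusted p = 0.54) with it, a difference of -0.62 ± 0.12 (adjusted p = 0.0022; -0.54, -0.96 and -0.37 by number). BORA, an activator of PLK1 that overlaps DIS3 on the opposite strand, rose by 1.19 without and 0.59 with 5-Ph-IAA, with a difference of -0.59 ± 0.15 (adjusted p = 0.037). CKAP5, a microtubule polymerase, rose from 367.3 ± 2.93 to 606.6 ± 27.6 CPM (SD, n = 3) without 5-Ph-IAA and from 278 ± 16.7 to 372 ± 14.3 CPM with it. Its difference was -0.30 (adjusted p = 0.031; -0.38, -0.42 and -0.11 by number). The call for BORA was lost in 7 of the 12 removals of 1 library (DMSO 2, each prexasertib library, 5-Ph-IAA 1 and 2, and both drugs 3), with adjusted p up to 0.25.

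**Figure D2:**
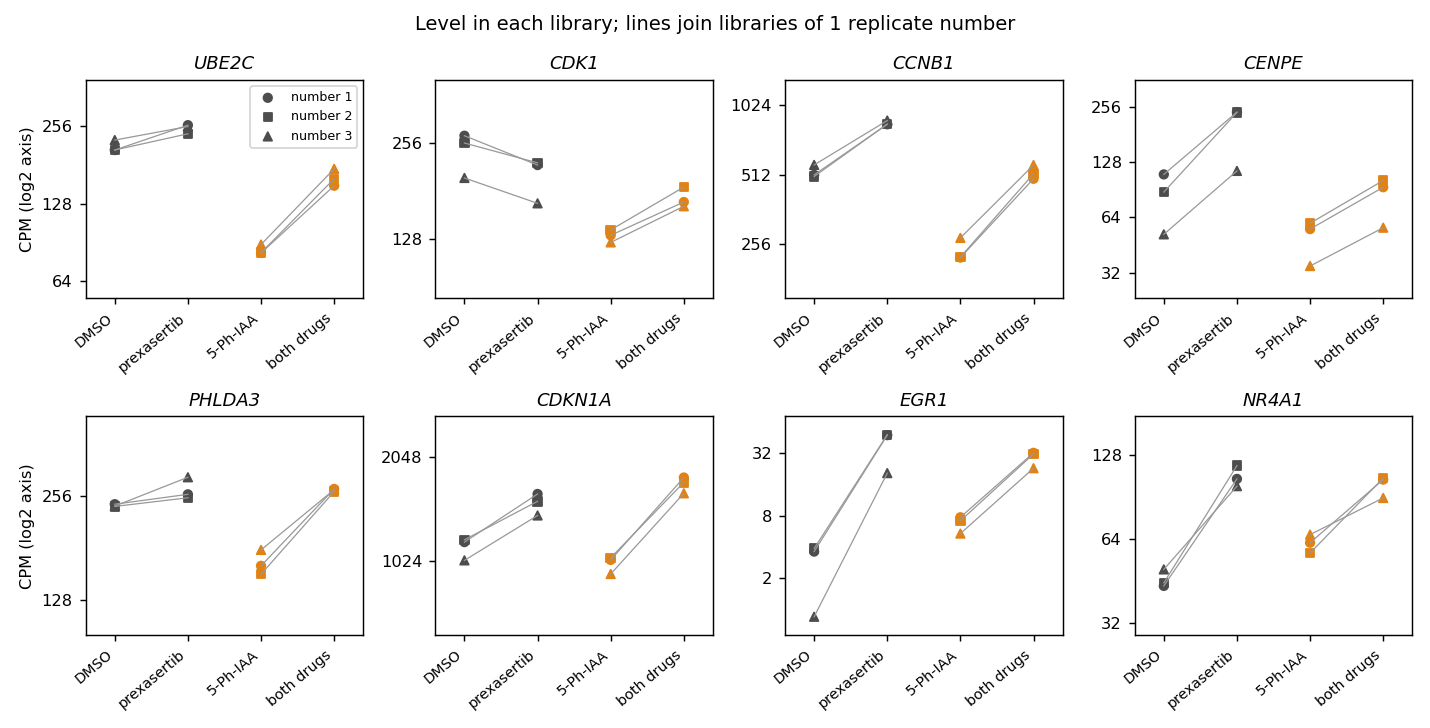
CPM on a log2 axis in each of the 12 libraries for 8 genes, with grey lines joining the 2 libraries of a number within an arm. Symbols are grey without 5-Ph-IAA and orange with it. The lines of UBE2C, CCNB1, PHLDA3 and CDKN1A climb more steeply with 5-Ph-IAA, as the differences of 0.69, 0.42, 0.55 and 0.34 state. Those of CDK1 fall without 5-Ph-IAA and climb with it (difference 0.65), and those of CENPE, EGR1 and NR4A1 climb less steeply with it.

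Calls among p53 targets were all above 0. Of 33 p53 targets, all tested, 5 were called above 0 (PHLDA3, AEN, TP53INP1, BBC3 and CDKN1A), against 0.375% of all genes, and none below 0, where 14 and none had an unadjusted p under 0.05. The difference lay above 0 in 28 of 33, against 52.1% of all genes, and in 24, 29 and 22 of them by number. The median difference was 0.18 against 0.01 over all genes, and the median response 0.27 without and 0.48 with 5-Ph-IAA. The count called fell to 3 without prexasertib library 1 or 2 in turn, and to 2 without all libraries of number 1 or of number 2.

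CDKN1A (chr6:36676463-36687332) encodes p21, the CDK inhibitor that p53 induces. It stood at 1164, 1182 and 1031 CPM with DMSO and 1602, 1526 and 1389 CPM with prexasertib. It stood at 1034, 1049 and 942 CPM with 5-Ph-IAA and 1787, 1730.0 and 1609 CPM with both drugs. The libraries with both drugs were all above those with prexasertib alone, and those with 5-Ph-IAA overlapped DMSO. CDKN1A rose by 0.42 ± 0.05 in the arm without 5-Ph-IAA and by 0.76 ± 0.05 in the other, a difference of 0.34 ± 0.064 (adjusted p = 0.0022; 0.33, 0.35 and 0.34 by number).

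PHLDA3 (chr1:201464278-201469188), an inhibitor of AKT signalling, stood at 243, 239 and 239.7 CPM with DMSO, 259, 253 and 290.5 CPM with prexasertib, 161, 152 and 179 CPM with 5-Ph-IAA, and 269, 264 and 268 CPM with both drugs. With 5-Ph-IAA it started lower, and with both drugs it ended within the range of prexasertib alone. PHLDA3 rose by 0.15 ± 0.05 in the first arm and by 0.71 ± 0.05 in the second, a difference of 0.55 ± 0.075 (adjusted p = 1.6e-05; 0.64, 0.71 and 0.30 by number). AEN (chr15:88604683-88632281), a nuclease linked to apoptosis, showed the same order, at 225, 230.3 and 239.5 CPM with DMSO, 271, 285 and 284 CPM with prexasertib, 169, 167 and 164 CPM with 5-Ph-IAA, and 275, 272 and 289 CPM with both drugs. Its difference was 0.47 ± 0.072 (adjusted p = 0.00019; 0.43, 0.39 and 0.57 by number), and the groups with prexasertib overlapped between arms.

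BBC3, the pro-apoptotic protein PUMA, rose from 80.2 ± 6.6 to 110.6 ± 8.6 CPM (SD, n = 3) without 5-Ph-IAA and from 58.3 ± 4.38 to 111.2 ± 7.09 CPM with it, a difference of 0.46 (0.55, 0.57 and 0.29 by number). TP53INP1, a stress protein of the autophagy and p53 pathways, had a rise called only with 5-Ph-IAA, of 0.41 against -0.05 without it, and its difference was also 0.46 (0.36, 0.52 and 0.53 by number). Among targets that were not called, MDM2, the ubiquitin ligase of p53, gave 0.29 (adjusted p = 0.11), the cytokine GDF15 0.19 (adjusted p = 0.26) and the pore-forming BAX 0.19 (adjusted p = 0.28). The lowest value of the list was -0.14 for APAF1 (adjusted p = 0.65).

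Immediate-early genes held the largest values below 0 among called genes averaging a log2 CPM of 1 or more. Of 41 such genes 38 were tested, and 5 were called below 0 (FOSB, EGR1, MYC, NR4A1 and KLF10) and 2 above 0 (IER5L and IER5), against 0.28% and 0.375% of all genes. DESeq2 with the block gave no adjusted p for FOSB and EGR1. The median difference was -0.15, with 12 of 38 above 0 (10, 12 and 16 by number) against 52.1% of all genes, and BTG2 is a member of both this list and the p53 list. The count below 0 ranged from 1 without prexasertib library 2 or 5-Ph-IAA library 1 to 10 without prexasertib library 3. It was 2 without DMSO library 1 or 2, prexasertib library 1 or the library with both drugs numbered 1, and 3 without the one numbered 2.

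EGR1 (chr5:138465479-138469303), a zinc finger factor induced by growth and stress signals through serum response factor, was nearly silent with DMSO, at 3.62, 3.87 and 0.856 CPM. Prexasertib took it to 47.5, 47.9 and 20.5 CPM. With 5-Ph-IAA it started at 7.73, 7.14 and 5.38 CPM and reached 32.1, 31.3 and 22.9 CPM with both drugs. Every prexasertib library lay above every library without it, and the DMSO libraries lay below those with 5-Ph-IAA alone. EGR1 rose by 3.79 ± 0.19 in cells without and by 2.12 ± 0.16 in cells with 5-Ph-IAA, a difference of -1.67 ± 0.27 (adjusted p = 0.0034; -1.63, -1.47 and -2.30 by number).

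FOSB (chr19:45467996-45475179), a subunit of the AP-1 factor, stood at 2.56, 3.61 and 1.48 CPM with DMSO, 30.1, 31.6 and 5.40 CPM with prexasertib, 5.13, 4.57 and 2.81 CPM with 5-Ph-IAA, and 13.6, 13.3 and 3.49 CPM with both drugs. Number 3 was the lowest in each group, and with both drugs it lay within the range of 5-Ph-IAA alone. The difference was -1.81 ± 0.36 (adjusted p = 0.021; -2.10, -1.57 and -1.47 by number), and the call was lost in 7 of the 12 removals of 1 library (DMSO, prexasertib and both drugs 1 and 2, and 5-Ph-IAA 1), with adjusted p up to 0.12. NR4A1 (chr12:52022832-52059503), an orphan nuclear receptor, stood at 43.3, 44.4 and 49.7 CPM with DMSO, 105, 117 and 98.6 CPM with prexasertib, 61.9, 56.8 and 66.1 CPM with 5-Ph-IAA, and 104, 105 and 89.5 CPM with both drugs. It reached overlapping levels with prexasertib in both arms, from a higher start with 5-Ph-IAA. The difference was -0.52 ± 0.11 (adjusted p = 0.0099; -0.52, -0.50 and -0.55 by number), lost in 4 removals (DMSO 1 and 2, prexasertib 2 and 5-Ph-IAA 1) with adjusted p up to 0.094.

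MYC (chr8:127735434-127742951), a factor that recruits TRRAP, had a fall called only with 5-Ph-IAA. It stood at 77.1, 88.4 and 97.0 CPM with DMSO and 88.9, 86.0 and 75.4 CPM with prexasertib, which overlap. It stood at 112, 100.4 and 124 CPM with 5-Ph-IAA and at 75.9, 70.7 and 75.7 CPM with both drugs, which do not. The response was -0.06 ± 0.08 without 5-Ph-IAA and -0.60 ± 0.08 with it, a difference of -0.53 ± 0.11 (adjusted p = 0.018; -0.77, -0.47 and -0.35 by number). The call was lost in 5 removals (prexasertib 1 and 2, 5-Ph-IAA 1 and both drugs 1 and 2), with adjusted p up to 0.094. KLF10, a TGF-beta-inducible repressor, rose by 0.40 without 5-Ph-IAA and had a response of 0.05 with it, a difference of -0.35 (-0.44, -0.47 and -0.14 by number).

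IER5L and IER5, related early genes, were called above 0. IER5L (chr9:129175552-129178261) stood at 125, 124 and 116 CPM with DMSO, 109, 106 and 101 CPM with prexasertib, 60.5, 57.7 and 52.2 CPM with 5-Ph-IAA, and 78.7, 73.7 and 63.6 CPM with both drugs. It fell in the first arm and rose in the second, with no overlap within either, and the difference was 0.55 ± 0.087 (adjusted p = 0.00021; 0.58, 0.58 and 0.49 by number). IER5 (chr1:181088700-181092900) stood at 192, 173 and 186 CPM with DMSO, 187, 179.6 and 186 CPM with prexasertib, 123, 116 and 144 CPM with 5-Ph-IAA, and 176, 177 and 176 CPM with both drugs. Its response was 0.01 ± 0.06 without 5-Ph-IAA, and it rose by 0.47 ± 0.06 with it, into the range of the DMSO libraries. The difference was 0.46 ± 0.08 (adjusted p = 0.001; 0.55, 0.55 and 0.28 by number). Early genes that missed the threshold included FOS at -0.85, NR4A3 at -0.73, ATF3 at -0.50 and JUNB at -0.05, with adjusted p of 0.2, 0.13, 0.17 and 0.87.

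The largest value above 0 among called genes averaging a log2 CPM of 1 or more was that of WNT6, a secreted WNT ligand (chr2:218859805-218874233). It stood at 6.33, 9.15 and 6.46 CPM with DMSO, 2.79, 2.82 and 2.84 CPM with prexasertib, 6.83, 6.53 and 6.29 CPM with 5-Ph-IAA, and 7.83, 7.28 and 7.20 CPM with both drugs. Only the libraries with prexasertib alone were low. WNT6 fell by 1.36 ± 0.2 without 5-Ph-IAA and had a response of 0.19 ± 0.17 with it, a difference of 1.55 ± 0.26 (adjusted p = 0.00072; 1.33, 1.80 and 1.33 by number). WNT6 overlaps WNT10A on the same strand.

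Others of the 10 largest such values were UBE2C and 8 genes of lower level, 6 of which had a fall called only without 5-Ph-IAA (not INPP5D and DNLZ). CTU1, a tRNA-modifying enzyme, gave 0.99 ± 0.24 (1.25, 1.46 and 0.49 by number), and PSD4, an exchange factor for ARF6, gave 0.99 ± 0.23 (1.04, 0.84 and 1.08). ANTKMT, a mitochondrial methyltransferase, gave 0.77 ± 0.15 (1.19, 1.08 and 0.09), and the phosphatase INPP5D 0.75 ± 0.19 (0.57, 1.21 and 0.31). DNLZ, a mitochondrial chaperone partner, gave 0.75 ± 0.19 (0.79, 1.03 and 0.42), the complex I assembly factor NDUFAF8 0.69 ± 0.14 (0.83, 0.82 and 0.46), MCRIP2 0.68 ± 0.17 (0.41, 1.19 and 0.43) and SDF2L1, an endoplasmic reticulum protein, 0.66 ± 0.15 (0.74, 0.70 and 0.49). Of these 8, ANTKMT was called in 10 of the 12 removals of 1 library and the others in 3 to 8. ANTKMT overlaps CCDC78 on the opposite strand and DNLZ overlaps GPSM1.

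Below 0, KDM6B, a demethylase of histone H3 lysine 27 (chr17:7834217-7854796), stood at 42.7, 52.5 and 30.6 CPM with DMSO, 69.1, 78.9 and 36.4 CPM with prexasertib, 53.9, 58.7 and 40.2 CPM with 5-Ph-IAA, and 52.2, 53.8 and 34.5 CPM with both drugs. Number 3 was low in each group, and prexasertib was higher within each number only without 5-Ph-IAA. KDM6B rose by 0.53 ± 0.08 without 5-Ph-IAA and had a response of -0.12 ± 0.08 with it, a difference of -0.66 ± 0.12 (adjusted p = 0.0017; -0.74, -0.71 and -0.47 by number). DBF4B, an activating subunit of the replication kinase CDC7 (chr17:44708665-44752264), stood at 59.3, 78.6 and 76.0 CPM with DMSO, 100.4, 106 and 124 CPM with prexasertib, 61.0, 62.0 and 69.0 CPM with 5-Ph-IAA, and 65.1, 58.8 and 76.6 CPM with both drugs. The prexasertib libraries stood above all others, and the difference was -0.57 ± 0.1 (adjusted p = 0.0017; -0.66, -0.51 and -0.56 by number).

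The largest value below 0 among called genes, -3.40 (adjusted p = 0.038), was that of DHX58, an RNA sensor of the antiviral response, which lies under the level required for naming and was picked out after its values were seen. It stood at 0.377, 0.088 and 0 CPM with DMSO, 1.6, 2 and 1.1 CPM with prexasertib, 1.04, 0.565 and 0.455 CPM with 5-Ph-IAA, and 0.481, 0.976 and 0.371 CPM with both drugs, so that only the prexasertib libraries stood above all others.

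MYPN, a sarcomere protein, rose by 0.83 from a low level without 5-Ph-IAA and had a response of -0.07 with it, a difference of -0.90 ± 0.19 (-1.07, -0.61 and -0.97 by number). DLC1, a RhoGAP, fell by 0.58 with 5-Ph-IAA and had a response of 0.15 without it, and its difference of -0.74 ± 0.19 was at the edge of the threshold (adjusted p = 0.0499). In the arms without and with 5-Ph-IAA, in that order, the centriole protein CNTRL rose by 1.31 and by 0.72, a difference of -0.59 ± 0.12 (-0.42, -0.93 and -0.38 by number), and ODF2, another centriole protein, by 0.67 and by 0.24, a difference of -0.43 ± 0.087 (-0.31, -0.49 and -0.50). LMO7, an actin and cadherin adaptor, rose by 0.85 and by 0.31, a difference of -0.54 ± 0.1 (-0.72, -0.70 and -0.20). PROSER1, a nuclear protein, gave -0.56 ± 0.13 (-0.50, -0.53 and -0.64). HMGCS1, an enzyme early in cholesterol synthesis and the only called gene of 25 sterol genes tested, fell by 0.23 only with 5-Ph-IAA, a difference of -0.34 ± 0.079 (-0.33, -0.41 and -0.27). ODF2, LMO7, KDM6B and DBF4B kept their call in all 12 removals of 1 library, whereas DLC1 kept it in 2, PROSER1 in 4, HMGCS1 in 6, CNTRL in 9 and MYPN in 10.

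**Figure D3:**
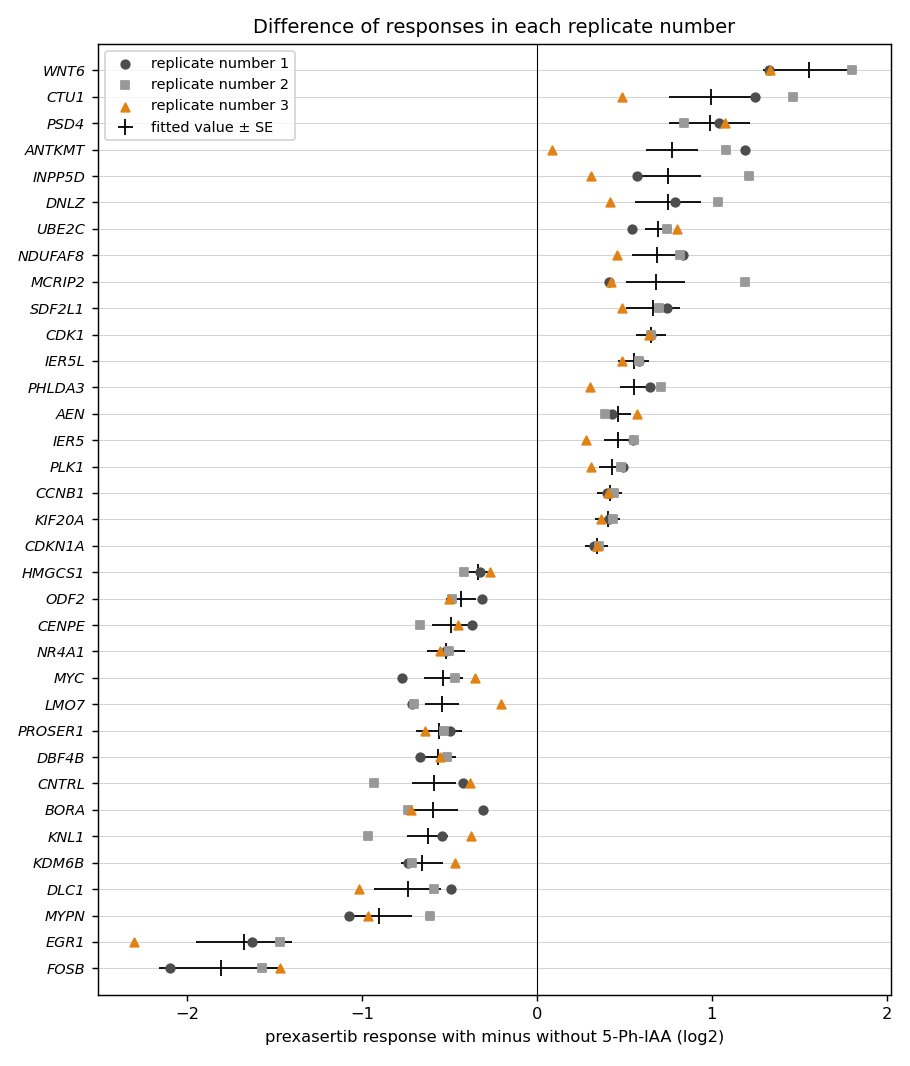
The difference of responses (log2) of the 35 named genes that were called, by replicate number (symbols), with the fitted value and its SE (black). All 3 symbols lie on 1 side of 0 for each gene by the rule that chose them; the symbols of CDK1, CCNB1 and CDKN1A nearly coincide, and ANTKMT runs from 0.09 in number 3 to 1.19 in number 1.

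Several gene groups held no called gene, which in lists of their size is near the 0.655% of all genes that were called. At an unadjusted p under 0.05, 987 of the 14658 genes lay above 0 and 692 below. None of 60 E2F targets was called in edgeR (6 above and 2 below 0 at an unadjusted p under 0.05), and their median difference was 0.04, with median responses of -0.32 without and -0.24 with 5-Ph-IAA. MYC targets of ribosome biogenesis (53 tested, 6 and 0 unadjusted) had a median of 0.08, with 41 above 0. Ribosomal protein genes (75 tested, 14 and 0 unadjusted) had a median of 0.09, with 69 above 0, but the medians were 0.10, 0.20 and 0.00 by number. The 37 subunits of TRRAP complexes (0 and 1 unadjusted) ran from -0.51 for ING3 to 0.21 for ACTR6 with a median of -0.00. In the 28 ATR and CHK1 signalling genes tested CDK1 was the only call.

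Replication-dependent histone genes, whose messages mostly lack a poly(A) tail, are poorly sampled by poly(A) libraries: 17 of 61 were tested, and none was called in edgeR, where 8 had an unadjusted p under 0.05 below 0 and none above. Their median difference was -0.64 (-0.82, -0.72 and -0.24 by number), with responses of 1.06 without and 0.56 with 5-Ph-IAA. H2BC12, the most abundant, rose from 21.7 ± 2.92 to 44.0 ± 1.6 CPM (SD, n = 3) without 5-Ph-IAA and from 33.7 ± 3.77 to 49.5 ± 2.3 CPM with it. Its difference of -0.46 ± 0.13 missed the threshold (adjusted p = 0.08; -0.44, -0.36 and -0.59 by number), as did that of H1-2, at -0.64 ± 0.17 (adjusted p = 0.068; -0.94, -0.39 and -0.55 by number). Histone genes share long stretches of sequence, so their counts are uncertain.

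**Figure D4:**
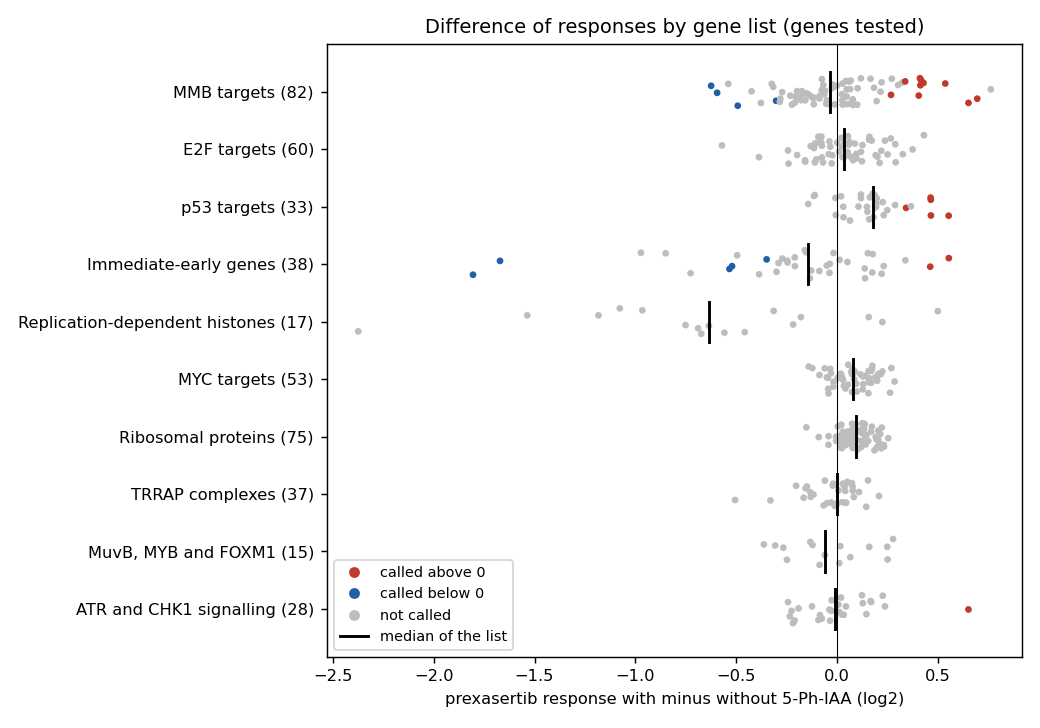
The difference of responses (log2) of each tested gene in 10 lists, with the number tested in brackets and a black bar at the list's median. p53 targets sit mostly right of 0 (median 0.18) and histones mostly left of it (median -0.64), and MMB targets carry called genes at both ends.

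TRRAP, MYBL2, FOXM1, LIN9, LIN54, CHEK1, WEE1 and RRM2 were not called with all 12 libraries. TRRAP mRNA (chr7:98878532-99013241) stood at 129, 149.5 and 119.5 CPM with 5-Ph-IAA and at 79.2, 76.0 and 94.5 CPM with DMSO, with no overlap. It stood at 76.5, 84.2 and 63.5 CPM with prexasertib and 116, 99.7 and 141 CPM with both drugs, and the difference of -0.01 ± 0.26 was scattered by number (-0.11, -0.73 and 0.81); without number 3 it was -0.442 and called (adjusted p = 0.027). These counts follow the message and do not check the degraded protein. MYBL2 gave 0.07 ± 0.08 (adjusted p = 0.82) and FOXM1 -0.06 ± 0.073 (adjusted p = 0.82). MYBL2, FOXM1 and RRM2 had the narrowest errors among these genes. LIN9 gave -0.25 ± 0.18, LIN54 0.28 ± 0.16, CHEK1 -0.24 ± 0.12 (adjusted p = 0.45) and the CDK1-inhibiting kinase WEE1 0.17 ± 0.13. RRM2, a subunit of ribonucleotide reductase, fell by 0.33 without 5-Ph-IAA and gave -0.14 with it, a difference of 0.19 ± 0.074 (adjusted p = 0.28; 0.21, 0.20 and 0.17 by number).

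Called genes differed in length between the directions. The genes above 0 had a median span of 8534 bases, against 35669 below 0 and 28652 over all tested genes. Over all genes the median difference was 0.10 for spans under 5 kb and 0.05 for 5 to 20 kb. It was -0.00, -0.02 and -0.04 for 20 to 50, 50 to 100 and over 100 kb. The same order was found among MMB targets, where the 10 above 0 had a median span of 11108 bases, the 4 below 0 one of 81313 and the 68 not called one of 28703. Over all genes this order did not appear in number 3, and among MMB targets it was weaker there. Spearman's rho between span and difference across 14587 genes, which share the same 12 libraries and are not replicates, was -0.156 and -0.216 in numbers 1 and 2 but 0.017 in number 3, and among the 82 MMB targets -0.424, -0.477 and -0.0936. The part of library quality or of gene length in the calls was not tested.

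**Figure D5:**
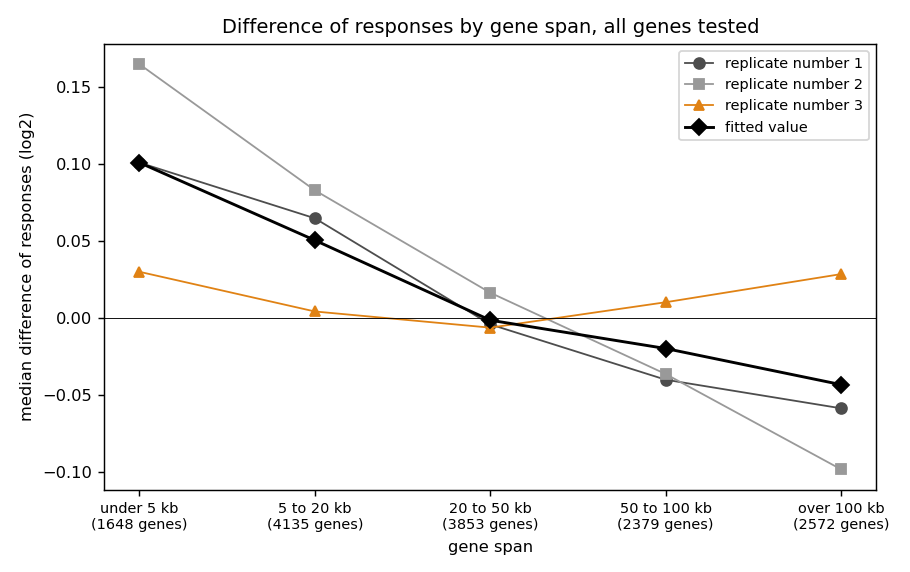
Median difference of responses (log2) over all tested genes in 5 classes of gene span, for each replicate number and for the fit (black). The fit falls from 0.10 to -0.04 from the shortest to the longest class, while number 3 runs from 0.03 to 0.03.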

How the data were processed

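Poly(A) RNA was sequenced from directional libraries, per the labels' protocols. The authors deposited whole-number counts per gene, made with featureCounts 2.0.8 on hg38 with limma 3.58.1 also named, per the submitters' processing notes. Aligner, annotation and use of strand were not given in the sources used here, so reads of overlapping genes may be shared. Of 28395 gene IDs, 27745 matched the RefSeq table of GRCh38.p14, and the 650 unmatched ones held 0.0324% of counts.

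Counts were analysed in edgeR 4.0.16 (R 4.3.3): filterByExpr by group (a count of 10 and a total of 15 at least), TMM scaling, and the robust quasi-likelihood F-test with replicate number and group as terms. P-values were adjusted over the 14658 genes tested (Benjamini-Hochberg) and called under 0.05. The SE is the log2 value divided by the square root of F. CPM use TMM library sizes, and values by number use log2 CPM with a prior count of 2. Same-numbered libraries correlated in their deviations from the group means in all 18 pairs (0.22 to 0.633), and libraries of numbers 1 and 2 did so across the numbers too (0.196 to 0.366), so that only number 3 stood apart. Every same-numbered pair was over 0.1. The numbers were taken to pair the libraries by the rule set for this report, although the labels do not say what a number stands for. Deviations from a group mean cancel out within the group. Once number 3 stands apart, libraries of numbers 1 and 2 therefore correlate with each other whatever their number. These values cannot show that numbers 1 and 2 pair the libraries. The biological coefficient of variation was 5.72% with the block and 12.8% without it. The code was tested on simulated data.

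Named genes were those called that average a log2 CPM of 1 or more and have the same sign in all 3 numbers: the 10 largest and the 6 smallest adjusted p in each direction, the 2 smallest adjusted p in each direction of each list, and 14 fixed genes. Some results are not reported here. Members and gene lists were chosen with earlier results of these data known. Alternatives were no block, other scalings, filters and tools (DESeq2 1.42.0, limma-voom), and the removal of each library or number. The block of number 3 alone and the fits without the block by DESeq2 and limma-voom were chosen after seeing the data.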

Additional observations from a re-analysis of the deposited data

Results flagged for a closer look

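The prexasertib response differed between cells with and without 5-Ph-IAA, by a test of the difference itself, for 35 of the 43 named genes, and each is given here as the log2 response with 5-Ph-IAA minus that without it. Values above 0 were WNT6 1.55, CTU1 0.99, PSD4 0.99, ANTKMT 0.77, INPP5D 0.75, DNLZ 0.75, UBE2C 0.69, NDUFAF8 0.69, MCRIP2 0.68, SDF2L1 0.66, CDK1 0.65, IER5L 0.55, PHLDA3 0.55, AEN 0.47, IER5 0.46, PLK1 0.43, CCNB1 0.42, KIF20A 0.40 and CDKN1A 0.34. Values below 0 were FOSB -1.81, EGR1 -1.67, MYPN -0.90, DLC1 -0.74, KDM6B -0.66, KNL1 -0.62, BORA -0.59, CNTRL -0.59, DBF4B -0.57, PROSER1 -0.56, LMO7 -0.54, MYC -0.53, NR4A1 -0.52, CENPE -0.49, ODF2 -0.43 and HMGCS1 -0.34. All 3 replicate numbers share the sign of each value because the rule for naming genes required it.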

How the results depend on the processing

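The replicate block mattered most: without it the counts of genes called above and below 0 were 0 and 0 by edgeR, 5 and 0 by DESeq2 and 0 and 0 by limma-voom (the last 2 fits were chosen after seeing the data), against 55 and 41 with it. Without the block prexasertib called 346 higher and 347 lower genes without 5-Ph-IAA, 171 and 184 with it, and 0 MMB targets above 0, 0 p53 targets above 0 and 0 immediate-early genes below 0. All same-numbered libraries deviated together, and 8 of 12 libraries correlated best with their own number, but numbers 1 and 2 were not set apart from each other (0.196 to 0.366 across them). A replicate block of number 3 against the other two, chosen after seeing the data, called 50 and 40 genes. With no filter on low counts, 112 and 65 genes and 8 immediate-early genes below 0 were called, the larger set including rarer genes. DESeq2 with the block called 3 early genes below 0. It called 25 of the 35 named genes called here and gave no adjusted p for the other 10, which include FOSB, EGR1, WNT6, MYPN, CTU1, PSD4 and DLC1. With library size alone, 660 genes were called higher for prexasertib with 5-Ph-IAA.

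Leaving out a library or a whole number gave 7 to 126 genes above 0 and 2 to 125 below 0, lowest without number 2 (with number 1 level below 0) and highest without number 3. The prexasertib counts ranged from 665 to 1348 higher and 780 to 1480 lower without 5-Ph-IAA, and from 465 to 1209 higher and 472 to 1254 lower with it. MMB targets above 0 ranged from 2 to 13 (below 0 from 0 to 6), p53 targets above 0 from 2 to 7 and early genes below 0 from 0 to 10. Of the 35 named genes called, 17 kept their call in all 12 removals of 1 library, and none changed sign in any alternative. All 35 lost their call without the block, where the biological coefficient of variation was 12.8% against 5.72% with it. What sets the replicate numbers apart was not tested. TRRAP, which was not called, turned positive in 8 removals, at 0.0151, 0.0757, 0.0142, 0.0944, 0.109, 0.148, 0.0413 and 0.344, and without number 3 it was -0.442 and called (adjusted p = 0.027). Every one of the 96 called genes kept its sign in each alternative in which it was tested. These fits share most or all libraries with the main one, and leaving out the block hardly moves the estimates. Scaling moved the median of all genes from 0.012 to 0.0064 (DESeq2 size factors) and -0.0061 (library size), and the share of calls above 0 from 57.3% to 54.9% and 47.7%. Low levels limit the precision: the SE was 0.36 for FOSB against 0.071 for CCNB1.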

Other observations

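Some called genes belong to no list above and were picked after their values were seen, so they are given as values only. POLR2A, the catalytic subunit of RNA polymerase II, rose from 331 ± 24.6 to 648.3 ± 38.2 CPM (SD, n = 3) without 5-Ph-IAA and from 328.7 ± 6.41 to 492.9 ± 44.6 CPM with it, a difference of -0.38 on the log2 scale (-0.32, -0.58 and -0.27 by number). The cohesin loader NIPBL gave -0.42 and the chromatin protein JMJD1C -0.54. Beside CNTRL and ODF2, the centriole and centrosome genes KIAA0586 (-0.54), CEP170 (-0.40) and CEP20 (-0.37) were called below 0. MZT2B, also a centrosome gene, was called above 0, at 0.41 (0.52, 0.47 and 0.24 by number). How many centrosome genes were tested was not counted, so no share can be set beside the 0.28% of all genes called below 0.

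The histone genes H2AJ (0.33), H1-10 (0.34) and H2AX (0.38), which lie outside the replication-dependent list and make messages with a poly(A) tail, were called above 0. Genes of mitochondrial proteins above 0 included NDUFA13 (0.39), ATP5F1D (0.42), ETFB (0.43), COQ8B (0.44), PRDX5 (0.32) and MRPL12 (0.32). These histone and mitochondrial genes were picked from the called genes. How many such genes were tested was not counted, so no share can be set beside the 0.375% of all genes called above 0. ATP5F1D, PRDX5 and MRPL12 span under 5 kb, a class in which 21 of 1648 genes were called above 0. In number 3 the values of ETFB, COQ8B and PRDX5 were 0.12, 0.12 and 0.09, against 0.60, 0.64 and 0.44 in number 1.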
